A study of Rattus norvegicus with 23 samples.

Results

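Nuclear genes for the subunits of the mitochondrial respiratory chain and of ATP synthase were measured in hepatocytes, LSECs and KCs of rat liver cultures. A list of 47 such genes was followed, and 45 of them were kept because at least 1 probe set names only that gene, with the probe set of the highest mean over the 23 arrays standing for a gene with several. The 45 genes, out of 14218 on the array, comprise 21 of complex I, 4 of complex II, 5 of complex III, 8 of complex IV and 7 of complex V. Ndufa4 is counted with complex I by its name, although later work also assigns it to complex IV. Uqcrb and Cycs were not kept, since their probe sets also name other genes. Hepatocytes were taken at day 12, with 3 arrays each, from 4 cultures, namely monolayers (HM), sandwiches between collagen layers (CS), a 3D model with LSECs (3DHL) and a 3D model with both LSECs and KCs (3DHLK). LSECs, the endothelial cells of the liver sinusoids, came from both 3D models with 3 arrays each, also at day 12. KCs, the resident macrophages of the liver, came from the 3DHLK model at day 12 with 2 arrays, and from KC monolayers at day 3 with 3 arrays, which the labels describe as KCs before the 3D culture. Hepatocytes and LSECs were isolated from female Lewis rats of an age not given in the sources used here, KCs were purchased as cryopreserved cells, and the labels name no genetic change and no drug. In the 3D models a detachable membrane of chitosan and hyaluronic acid lay between the cell layers, and the cell types were separated after culture with magnetic beads. Nothing in the labels says whether the arrays of a group came from separate animals, so the spread between arrays behind the p-values may be technical. That spread is 1 estimate per gene shared by all 8 groups, and not that of the compared arrays alone.

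Complex I takes electrons from NADH and complex II takes them from succinate, complex III passes them to cytochrome c, and complex IV transfers them to oxygen. Complexes I, III and IV pump protons out of the mitochondrial matrix, and complex V, the ATP synthase, uses their return to make ATP. Most subunits are encoded in the nucleus and imported, while a few core proteins are encoded by mitochondrial DNA. The factors NRF1 and NRF2, an ETS protein whose DNA-binding subunit is GABPA, bind many of the nuclear genes, and PGC-1α coactivates them. Hepatocytes are rich in mitochondria, which supply the ATP for gluconeogenesis and urea synthesis.

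Because the nuclear genes share regulators, their promoters were searched on both strands for the NRF1 core GCATGCG, the ETS core CCGGAAG, the YY1 core GATGGCG and the SP1 box GGGCGG. RefSeq promoters on assembly GRCr8, from 250 bases before to 50 bases after the start, were at hand for 40 of the 45 genes and not for Ndufa8, Ndufb9, Cyc1, Cox6a1 and Cox6c. The NRF1 core was in 6 of the 40 promoters (15%), against 5.26% of the 13243 promoters of genes on the array and 3.33% of all 33469 promoters. The ETS core was in 14 (35%), against 14.3% and 8.75%. The YY1 core was in 9 (22.5%), against 6.11% and 3.89%. The SP1 box was in 15 (37.5%), against 55.7% of the promoters of genes on the array and 33.1% of all. Either the NRF1 or the ETS core was in 17 promoters (42.5%), against 18.4% for genes on the array, and 3 held both. In none of the 40 did different motifs overlap. For each complex, a promoter that holds either core is shown to 30 bases after the start, 5′ to 3′, with matches to the NRF1 and ETS cores on either strand in capitals. In Atp5po the capitals hold overlapping matches to the NRF1 core on both strands, and the motif matches describe letters only.
Ndufa6, complex I, chr7:115750288-115750567, minus strand: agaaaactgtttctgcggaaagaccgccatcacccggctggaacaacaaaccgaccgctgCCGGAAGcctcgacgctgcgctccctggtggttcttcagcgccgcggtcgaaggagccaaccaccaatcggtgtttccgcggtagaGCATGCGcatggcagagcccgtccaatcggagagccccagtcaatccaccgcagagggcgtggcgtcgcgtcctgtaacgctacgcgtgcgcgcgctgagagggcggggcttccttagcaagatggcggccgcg
Sdhb, complex II, chr5:158547684-158547963, plus strand: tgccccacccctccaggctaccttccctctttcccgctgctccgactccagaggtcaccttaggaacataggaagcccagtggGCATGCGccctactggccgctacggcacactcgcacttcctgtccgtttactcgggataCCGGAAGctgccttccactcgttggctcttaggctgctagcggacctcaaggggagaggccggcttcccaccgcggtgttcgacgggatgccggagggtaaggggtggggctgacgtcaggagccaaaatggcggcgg
Uqcrq, complex III, chr10:38089949-38090228, minus strand: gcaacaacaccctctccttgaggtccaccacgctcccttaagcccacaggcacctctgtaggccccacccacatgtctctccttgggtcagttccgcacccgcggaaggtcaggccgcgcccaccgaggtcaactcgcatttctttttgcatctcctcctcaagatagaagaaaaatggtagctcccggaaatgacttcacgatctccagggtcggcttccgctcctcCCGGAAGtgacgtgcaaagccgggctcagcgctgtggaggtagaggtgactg
Cox8a, complex IV, chr1:213833594-213833873, minus strand: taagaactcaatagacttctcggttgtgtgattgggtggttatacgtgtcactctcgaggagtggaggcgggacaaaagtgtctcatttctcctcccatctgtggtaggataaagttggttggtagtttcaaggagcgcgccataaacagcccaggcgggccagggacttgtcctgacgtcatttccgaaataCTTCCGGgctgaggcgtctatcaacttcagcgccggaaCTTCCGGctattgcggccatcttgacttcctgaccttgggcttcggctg
Atp5po, complex V, chr11:44657454-44657733, minus strand: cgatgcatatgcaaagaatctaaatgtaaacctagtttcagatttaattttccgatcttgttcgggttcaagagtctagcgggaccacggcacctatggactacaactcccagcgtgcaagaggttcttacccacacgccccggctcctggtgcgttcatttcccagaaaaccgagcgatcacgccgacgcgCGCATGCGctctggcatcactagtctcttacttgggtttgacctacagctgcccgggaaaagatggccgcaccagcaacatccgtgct

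Every one of the 45 genes lay above the median of all gene means, and 39 lay in the top 10% of them. The mean log2 value of the 45 genes was 11.56 ± 0.05 in HM, 12.03 ± 0.09 in CS, 11.80 ± 0.03 in 3DHL hepatocytes and 11.68 ± 0.10 in 3DHLK hepatocytes (SD, n = 3). In the LSEC fractions it was 11.84 ± 0.04 in the 3DHL and 12.10 ± 0.03 in the 3DHLK model (SD, n = 3). It was 11.78 ± 0.04 in the KC fraction (SD, n = 2) and 10.88 ± 0.26 in KC monolayers (SD, n = 3). In the order of these means, KC monolayers lay below HM and 3DHL LSECs below CS with no overlap of arrays. All other neighbours in that order overlapped, CS and the highest group, 3DHLK LSECs, included. By gene, the highest group mean was in LSECs of the 3DHLK model for 30 genes, in CS for 14 and in 3DHL hepatocytes for 1. The lowest was in KC monolayers for 40 genes, and among the day 12 groups it was in HM for 29, in the KC fraction for 10, in 3DHLK hepatocytes for 5 and in LSECs of the 3DHL model for 1. The group means of a gene ranged over 1.19 log2 units in the median over all 8 groups and over 0.58 over the 7 groups of day 12. Over the 8 groups, this median was largest for complex III at 1.54 and complex V at 1.43, with 1.21 for complex I, 0.95 for complex II and 0.93 for complex IV. At day 12 the medians by complex lay between 0.46 and 0.69.

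**Figure D1:**
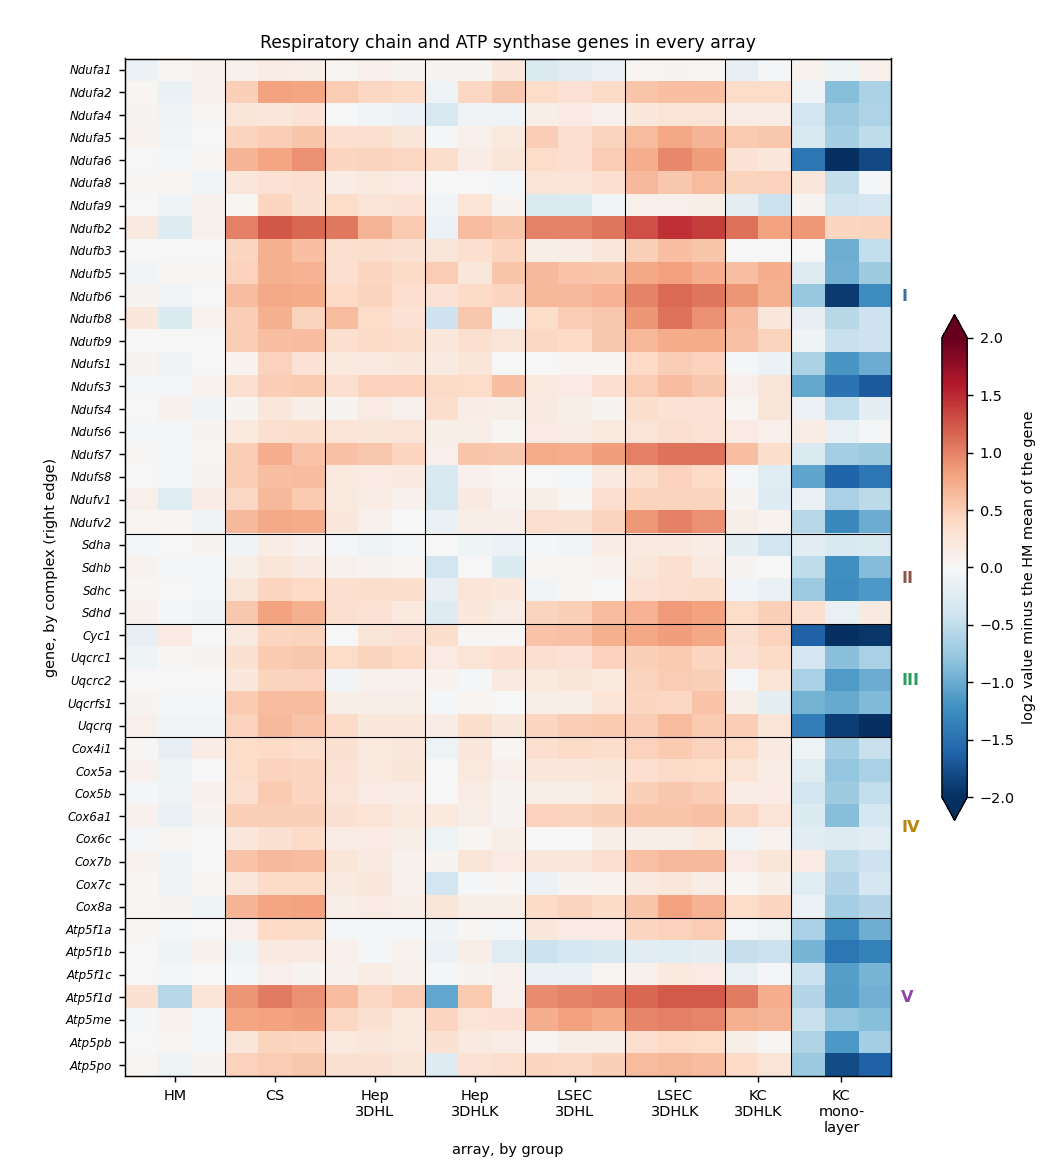
Each row is one of the 45 genes, ordered by complex, each column is one array of the 8 groups, and colour gives the log2 value minus the mean of that gene in HM. CS and the LSECs of the 3DHLK model are above HM for nearly all genes, and the KC monolayers are below HM for most.

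The labelled cell types were compared with their marker genes, since these arrays measure whole fractions. Array medians were 7.41 to 7.53 on the log2 scale, and the median SD of the 45 genes within a group was 0.27 in KC monolayers against 0.04 to 0.12 elsewhere. The 11 hepatocyte markers averaged 13.25 in 3DHL LSECs, 13.47 in 3DHLK LSECs and 13.23 in HM, while the 9 endothelial markers averaged 5.95 and 6.11 there against 5.89 in HM. The defining endothelial genes Pecam1 (5.99 and 6.19) and Stab2 (5.85 and 5.98) were near their HM levels of 5.94 and 5.77. The 8 macrophage markers averaged 12.02 in KC monolayers and 6.91 in the KC fraction of the 3DHLK model, whose hepatocyte markers averaged 12.62. Adgre1, a defining macrophage gene, averaged 12.91 in KC monolayers, 5.38 in that fraction and 4.55 in HM. The 10 stellate cell and fibroblast markers averaged 10.44 in 3DHLK hepatocytes, 8.31 in 3DHL hepatocytes, 8.75 in CS, 7.48 in HM, and 6.27 and 6.53 in the LSEC fractions. They averaged 8.34 in KC monolayers and 6.75 in the KC fraction. In 3DHLK hepatocytes the macrophage markers averaged 7.46, above the KC fraction, and in HM they averaged 6.47. The endothelial markers averaged 6.42 in 3DHLK hepatocytes, above both LSEC fractions, 6.72 in the KC fraction and 7.52 in KC monolayers. The names hepatocyte, LSEC and KC therefore stand for the labelled fractions or cultures below, and differences between them cannot be assigned to a cell type. In such bulk RNA, fewer cells of a type and less RNA per cell cannot be told apart.

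CS hepatocytes were compared with HM, 2 cultures of hepatocytes alone, of which CS has a collagen overlay. All 45 genes were higher in CS, 32 rose and none fell, where 11.1% of all genes tested rose and 10.7% fell. The median log2 difference was 0.46 over the 45 genes and 0.04 over all genes, and the median fold was 1.37. By complex, 15 of 21 genes of complex I rose, as did 2 of 4 of complex II, 4 of 5 of complex III, 8 of 8 of complex IV and 3 of 7 of complex V. The arrays did not overlap for 39 genes, all higher in CS, against 24.8% of all genes. Called are genes with a limma p-value, adjusted over all genes tested by Benjamini-Hochberg, under 0.05.

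In complex I, Ndufb2, an accessory subunit of the membrane arm, measured 10.44, 10.02 and 10.35 in HM and 11.28, 11.51 and 11.42 in CS. Its rise of 1.13 log2 units (SE 0.18, adjusted p = 6.78e-05, limma) was 2.19-fold and the largest of the 45. Of the 6 core subunits, those of the peripheral arm that form the path of electrons, 5 rose, with a median difference of 0.55, and of the 15 accessory subunits 10 rose, also with a median of 0.55. In complex II, the membrane anchor Sdhd measured 10.74, 10.62 and 10.58 in HM and 11.19, 11.45 and 11.36 in CS, a rise of 0.69 (SE 0.13, adjusted p = 0.000599, limma). The other membrane anchor, Sdhc, rose by 0.36, while the flavoprotein Sdha differed by 0.06 and the iron-sulphur protein Sdhb by 0.17. Thus the called genes of complex II are its anchors, and the catalytic pair did not pass the test.

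In complex III, the Rieske iron-sulphur protein Uqcrfs1 measured 11.33, 11.26 and 11.25 in HM and 11.81, 11.90 and 11.91 in CS, a rise of 0.59 (SE 0.10, adjusted p = 0.000126, limma). Cytochrome c1, Cyc1, which passes electrons from the Rieske protein to cytochrome c, differed by 0.36 and was the one gene of this complex that did not pass (adjusted p = 0.0621, limma). The 8 genes of complex IV, all encoded in the nucleus, rose by 0.30 to 0.76. The largest rise was that of Cox8a, a small membrane subunit, from 11.80, 11.82 and 11.69 to 12.44, 12.56 and 12.57, by 0.76 (SE 0.12, adjusted p = 7.69e-05, limma). In complex V, the stalk subunit Atp5f1d measured 11.22, 10.36 and 11.19 in HM and 11.80, 11.96 and 11.83 in CS, where HM replicate 2 lay well below the other arrays. It rose by 0.94 (SE 0.27, adjusted p = 0.0131, limma). The alpha and beta subunits of the catalytic head, Atp5f1a and Atp5f1b, differed by 0.29 and 0.08 and the rotor subunit Atp5f1c by 0.05, none called, while Atp5me of the membrane part rose by 0.81.

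Leaving out 1 array in turn gave 20 to 33 genes that rose, with 20 without HM replicate 2. Markers of stellate cells and fibroblasts moved with this comparison, 7 of 10 rising with a median difference of 1.39, and 4 of the 11 hepatocyte markers rose. Their part in the differences of the 45 genes was not tested.

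The 3DHL hepatocytes were compared with HM, from which their culture differs by both the membrane and the LSECs, so these cannot be told apart. The HM arrays are those of the comparison above. Here 6 genes rose and none fell, against 7.04% and 4.7% of all genes, and 42 of 45 differences were above 0. The median was 0.24 for the 45 genes and 0.01 for all. The genes that rose were Ndufa6, Ndufb2, Ndufb9, Ndufs3 and Ndufs7 of complex I and Uqcrc1 of complex III. Ndufb2 measured 11.32, 10.94 and 10.79 in 3DHL hepatocytes, all above the HM arrays given above, a rise of 0.75 (SE 0.18, adjusted p = 0.00758, limma). Uqcrc1, a core protein of complex III, measured 11.40, 11.51 and 11.54 in HM and 11.85, 11.92 and 11.89 in 3DHL hepatocytes. It rose by 0.41 (SE 0.12, adjusted p = 0.0255, limma), and its arrays did not overlap. The 34 genes without overlap were all higher in 3DHL hepatocytes, against 26.9% of all genes. The count of rises was 0 without 3DHL replicate 1, 1 without HM replicate 2, and 2 without any other single array of these groups. It was 17 when the KC monolayers were left out of the fit, which was tried after seeing the data. With only these arrays fitted it was 22. Of the 14218 genes, 1984 rose and 1271 fell in the former fit, and 2677 rose and 1793 fell in the latter. None of the 11 hepatocyte markers rose and 4 fell. Of the 10 stellate cell and fibroblast markers 1 rose and 9 were above 0, with a median of 0.88, and the part of these markers was not tested.

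**Figure D2:**
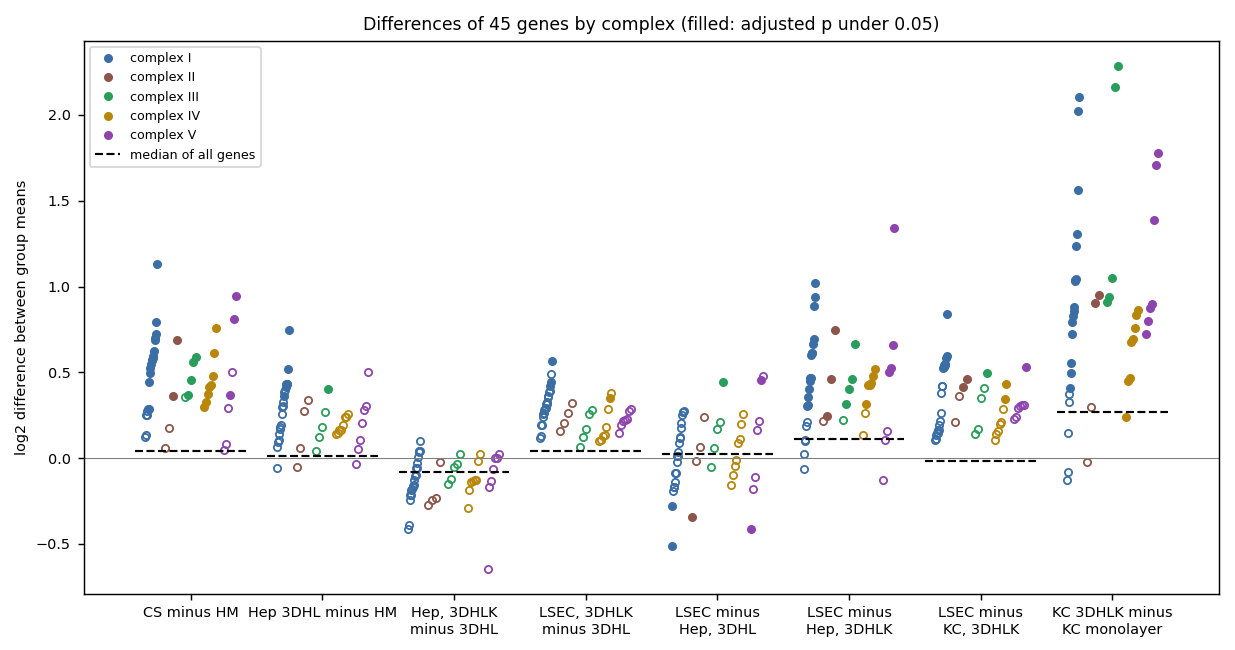
Each point is the log2 difference of one of the 45 genes in the comparison named on the horizontal axis, coloured by complex and filled where the adjusted p was under 0.05, and dashes mark the median of all genes. The differences lie above 0 for all 45 genes between CS and HM, between LSECs of the 3DHLK and 3DHL models and between LSECs and KCs of the 3DHLK model.

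Hepatocytes of the 3DHLK model were compared with those of the 3DHL model to see the effect of adding KCs. None of the 45 genes passed the test in limma either way, against 7.72% of all genes that rose and 3.76% that fell, and 4 had an unadjusted p under 0.05. Of the differences, 35 were below 0, with a median of -0.13 where the median of all genes was -0.08. Under cyclic loess scaling 27 were below 0, with a median of -0.06. The arrays did not overlap for 13 genes, all lower in the 3DHLK model, against 22.5% of all genes. The lowest difference was that of Atp5f1d, which measured 11.54, 11.33 and 11.41 in 3DHL and 9.88, 11.45 and 11.02 in 3DHLK hepatocytes. Its difference of -0.64 (SE 0.27, adjusted p = 0.133, limma) came with overlapping arrays, replicate 1 of the 3DHLK model being far below the rest. That array also had the lowest mean over the 45 genes of its group, 11.56 against 11.75 and 11.71. Without 3DHLK replicate 2, 2 genes fell, and 2 also fell without the KC monolayers in the fit. In the latter fit 1553 of the 14218 genes fell and 1483 rose. Stellate cell and fibroblast markers rose in 7 of 10 cases, with a median of 2.12, and 4 of 8 macrophage markers rose. Their part in the values of the 45 genes was not tested.

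In LSECs, the same addition of KCs to the 3D model came with 4 genes that rose, against 3.58% of all genes, and none fell, against 3.89%. All 45 differences were above 0, with a median of 0.26 against 0.04 for all genes, and they were also all above 0 under cyclic loess and under centring on housekeeping genes. The arrays did not overlap for 42 genes, all higher in the 3DHLK model, against 21.9% of all genes. The 4 that rose were Ndufa6, Ndufs1 and Ndufv2 of complex I and Cox5b of complex IV. Ndufv2, an iron-sulphur subunit of the NADH-oxidising module, measured 11.13, 11.10 and 11.24 in the 3DHL and 11.66, 11.80 and 11.71 in the 3DHLK model. It rose by 0.57 (SE 0.14, adjusted p = 0.0107, limma), which is 1.48-fold. Cox5b, a nuclear subunit of complex IV, measured 12.35, 12.36 and 12.41 in the 3DHL and 12.70, 12.76 and 12.71 in the 3DHLK model, a rise of 0.35 (SE 0.10, adjusted p = 0.0347, limma). Within complex I, the 6 core subunits differed by 0.29 to 0.57, 2 of them called, and the 15 accessory subunits by 0.12 to 0.49, 1 called. In complex V no gene was called, and the differences of its 7 genes were 0.15 to 0.29. The count was 0 without 3DHL replicate 1 or 3DHLK replicate 2, 1 without 3DHL replicate 2 or 3DHLK replicate 3, and 2 without 3DHL replicate 3 or 3DHLK replicate 1. It was 18 without the KC monolayers in the fit and also 18 with only the compared arrays fitted. Of the 14218 genes, 1241 rose and 1094 fell in the former fit, and 1352 rose and 1159 fell in the latter. Of the hepatocyte markers 1 of 11 rose, and 9 were above 0, with a median of 0.21, and their part was not tested.

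The change in LSECs was then set against that in hepatocytes by an interaction term over the arrays of the previous 2 comparisons. All 45 genes had the larger value in LSECs, 7 passed the test, and none passed the other way, where 3.51% and 6.81% of all genes did. The median of this difference of changes was 0.36, against 0.11 for all genes. The 7 genes were Ndufa5, Ndufa6, Ndufb8, Ndufs8 and Ndufv2 of complex I, Sdhc of complex II and Cox5b of complex IV. Ndufb8, an accessory subunit of the membrane arm, measured 8.78, 8.51 and 8.42 in 3DHL and 7.72, 8.67 and 8.08 in 3DHLK hepatocytes. In LSECs it measured 8.50, 8.64 and 8.67 in the 3DHL and 9.02, 9.22 and 9.05 in the 3DHLK model. Neither change of Ndufb8 passed the test by itself, while their difference of 0.90 did (SE 0.26, adjusted p = 0.0285, limma). Sdhc was -0.23 in hepatocytes and 0.32 in LSECs, a difference of 0.56 (SE 0.18, adjusted p = 0.0472, limma). Cox5b was -0.13 in hepatocytes and 0.35 in LSECs, a difference of 0.48 (SE 0.14, adjusted p = 0.0321, limma). The count was 0 without hepatocyte 3DHL replicate 1, LSEC 3DHL replicate 2, or LSEC 3DHLK replicate 2 or 3. It was 1 without hepatocyte 3DHL replicate 2, hepatocyte 3DHLK replicate 1 or LSEC 3DHL replicate 1, 2 without hepatocyte 3DHLK replicate 3, 3 without LSEC 3DHLK replicate 1 and 4 without LSEC 3DHL replicate 3. Without the KC monolayers in the fit, 19 of the 45 passed. In that fit 1632 of the 14218 genes had the larger value in LSECs and 1410 the smaller. By the same term 3 of 8 macrophage, 3 of 9 endothelial and 2 of 10 stellate cell and fibroblast markers had the smaller value in LSECs, and 1 macrophage marker the larger. All 10 stellate cell and fibroblast markers were below 0, with a median of -1.56, and 10 of the 11 hepatocyte markers were above 0, with a median of 0.30 and none called. Their part was not tested.

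LSECs and hepatocytes were compared within each 3D model. In the 3DHL model 2 genes were higher in LSECs and 4 lower, against 18.5% and 21.9% of all genes, so the share called was below that of all genes in both directions. Under cyclic loess 14 were higher and 4 lower, where 2445 of the 14218 genes were higher and 2901 lower. The share higher was then above that of all genes. With only these arrays fitted 10 were higher and 4 lower, against 4174 and 4227 of all genes. Without the KC monolayers in the fit 7 were higher and 4 lower, against 3920 and 3992 of all genes. In that fit the share called stayed below that of all genes in both directions. The median difference was 0.06, against 0.02 for all genes. The LSEC arrays lay wholly above the hepatocyte arrays for 19 genes and wholly below them for 11, against 33.4% and 32.9% of all genes. Cyc1 measured 12.00, 12.02 and 12.15 in LSECs and 11.43, 11.68 and 11.72 in hepatocytes, and was higher in LSECs by 0.44 (SE 0.13, adjusted p = 0.0129, limma). Atp5me, the e subunit of the membrane part of ATP synthase, measured 11.48, 11.57 and 11.49 in LSECs and 11.17, 11.05 and 10.95 in hepatocytes, 0.46 higher (SE 0.11, adjusted p = 0.00203, limma). Both genes had no overlap between the fractions. Atp5f1b, the catalytic beta subunit of the same enzyme, was lower in LSECs, at 12.93, 13.01 and 13.05 against 13.46, 13.34 and 13.43, a difference of -0.41 (SE 0.13, adjusted p = 0.0134, limma). Thus the called genes of complex V went in opposite directions. Ndufa9, an accessory subunit near the quinone site of complex I, measured 11.30, 11.32 and 11.53 in LSECs and 11.95, 11.85 and 11.87 in hepatocytes, a difference of -0.51 (SE 0.13, adjusted p = 0.00448, limma). Sdhc differed by -0.34 with no overlap (adjusted p = 0.0339, limma), and Ndufa1 differed by -0.28. The count of higher genes was 1 without hepatocyte replicate 1 or LSEC replicate 3, and that of lower genes was 2 without hepatocyte replicate 2 or 3 or LSEC replicate 1 or 2. Stellate cell and fibroblast markers were lower in LSECs for 6 of 10 genes, with a median of -1.44, and 3 of 11 hepatocyte markers were higher. Of the macrophage markers 1 was higher and 2 were lower, and of the endothelial markers 1 was lower.

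In the 3DHLK model 31 of the 45 genes were higher in LSECs and none lower, against 34.7% and 25.7% of all genes. Under cyclic loess 29 were higher and 1 lower, where 3895 of the 14218 genes were higher and 4040 lower. The median difference was 0.43, against 0.11 for all genes, and 40 genes had no overlap, all higher in LSECs, against 41.4% of all genes. By complex, 14 of 21, 3 of 4, 4 of 5, 6 of 8 and 4 of 7 genes of complexes I to V were higher. Atp5f1d measured 12.07, 12.14 and 12.15 in LSECs, above the hepatocyte arrays given above, by 1.34 (SE 0.27, adjusted p = 0.000235, limma), the largest difference of the 45. Ndufb2 measured 11.56, 11.73 and 11.66 in LSECs and 10.16, 10.89 and 10.83 in hepatocytes, 1.02 higher (SE 0.18, adjusted p = 5.65e-05, limma). In both genes replicate 1 of the hepatocytes was the lowest array. Sdhd was higher by 0.75, Cyc1 by 0.67 and Cox8a by 0.52, the largest called differences of complexes II, III and IV. A second probe set of Sdhd, with a mean of 10.68 near the 11.00 of the one kept, gave 0.07 here (adjusted p = 0.613, limma), and in the 3DHL model -0.31 where the one kept gave 0.24. A second probe set of Uqcrc2, a core protein of complex III, gave 1.18 where the one kept gave 0.41. Atp5f1b and Ndufa1, at -0.13 and -0.06, were the 2 genes below 0, and neither was called. Leaving out single arrays gave 26 to 30 higher genes. Stellate cell and fibroblast markers were lower in LSECs for 8 of 10 genes, with a median of -4.74, and hepatocyte markers were higher for 8 of 11, with a median of 0.54. Macrophage markers were lower for 5 of 8 and higher for 1, with a median of -1.09, and 4 of 9 endothelial markers were higher and 3 lower. Their part in the differences of the 45 genes was not tested.

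Against KCs of the same 3DHLK model, 13 genes were higher in LSECs and none lower, where 9.73% and 5.35% of all genes were called. All 45 differences were above 0, with a median of 0.31 against -0.02 for all genes, and 44 were without overlap, against 25.1% of all genes. Of the 6 core subunits of complex I 5 were called, with a median of 0.54, and of the 15 accessory subunits 2, with a median of 0.19. Ndufv2 measured 10.90 and 10.86 in KCs, below the LSEC arrays given above, by 0.84 (SE 0.15, adjusted p = 0.000396, limma). Sdha, the flavoprotein of complex II that oxidises succinate, measured 12.09, 12.09 and 12.07 in LSECs and 11.71 and 11.54 in KCs, a difference of 0.46 (SE 0.11, adjusted p = 0.0045, limma). Uqcrfs1 was higher by 0.50, Cox7b, a small subunit of complex IV, by 0.43, and the alpha subunit of ATP synthase, Atp5f1a, by 0.53. The count was 1 without KC replicate 2, where the KC array left was assumed to vary like the other groups, and 8 without any single LSEC array, and it was 25 with centring on housekeeping genes and 23 without the KC monolayers in the fit. Of the 14218 genes, 2090 were higher and 611 lower with that centring, and 2065 higher and 1574 lower without the KC monolayers. Hepatocyte markers were higher in LSECs for 9 of 11 genes, with a median of 0.63. Endothelial markers were lower in LSECs than in KCs for 5 of 9 genes and higher for none, with a median of -0.63. Their part was not tested.

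KCs of the 3DHLK model at day 12 were compared with KC monolayers at day 3, so culture and day cannot be told apart. On the deposited values 38 of the 45 genes were higher in the 3DHLK model and none lower, against 44.5% and 20.8% of all genes, with a median of 0.86 where the median of all genes was 0.27. The arrays did not overlap for 38 genes, all higher, against 43.8% of all genes. With only the compared arrays fitted, 30 of the 45 were higher and none lower. In that fit 4013 of the 14218 genes were higher and 1894 lower. The result of this comparison also depended on scaling. With arrays centred on 15 housekeeping genes, whose median had itself differed by 0.48, 29 were higher and 4 lower, with a median of 0.39. The median of all genes became -0.19, and 3473 of the 14218 genes were higher and 5433 lower. With cyclic loess 16 were higher and 10 lower, with a median of 0.09. The median of all genes became 0.04, and 4605 of the 14218 genes were higher and 4398 lower. The share that was higher was thus close in the 45 and in all genes. Under loess the medians were 0.32 for complex III, 0.16 for complex V and 0.10 for complex I, and -0.13 for both complex II and complex IV, so those 2 complexes changed sign. The interquartile range over genes was 2.30 to 2.96 in KC monolayers and 2.61 to 2.82 in the KC fraction, against 3.04 to 3.10 in HM. The 8 macrophage markers were all lower in the KC fraction and the 11 hepatocyte markers all higher, with medians of -5.47 and 4.93. Of the 10 stellate cell and fibroblast markers 6 were lower and 0 higher, with a median of -1.45. Of the 9 endothelial markers 4 were lower and 1 higher, with a median of -0.39. The part of these markers in the differences of the 45 genes was not tested.

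**Figure D3:**
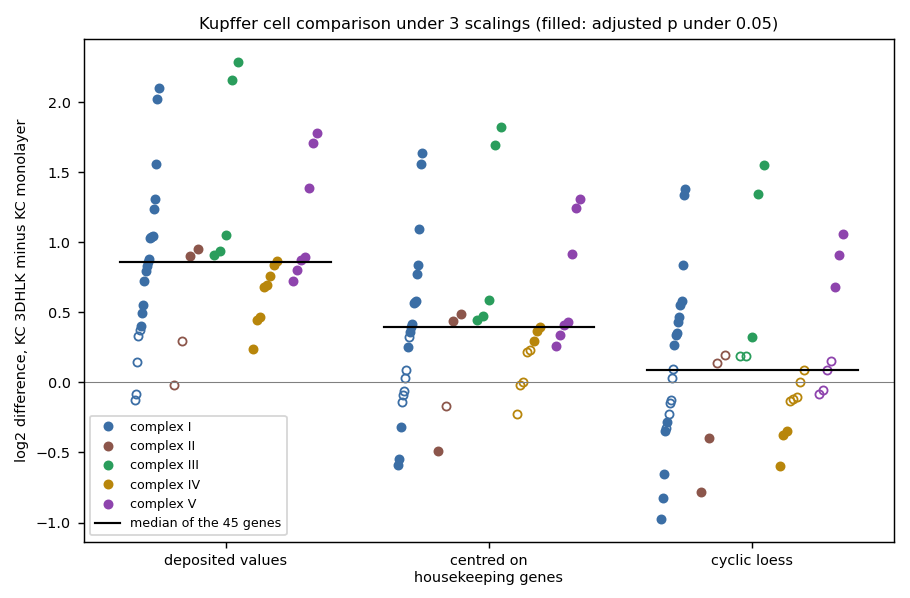
Each point is the log2 difference of one of the 45 genes between KCs of the 3DHLK model and KC monolayers under one of 3 scalings, coloured by complex and filled where the adjusted p was under 0.05, and bars mark the median of the 45 genes. The median goes from 0.86 on the deposited values to 0.39 with centring on housekeeping genes and 0.09 with cyclic loess.

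The group means of 6 genes ranged over more than 2 log2 units, and in each of them KC monolayers were the lowest group, also with all their arrays below every other array except for Atp5f1d, where 3DHLK hepatocyte replicate 1 was at 9.88. Cyc1 measured 9.81, 9.30 and 9.48 in KC monolayers and 11.75 and 11.88 in the KC fraction, a difference of 2.29 (SE 0.15, adjusted p = 1.38e-11, limma) that was 1.82 with housekeeping centring and 1.55 with cyclic loess, called each time. Uqcrq, a small subunit of complex III, measured 11.10, 10.61 and 10.42 against 12.98 and 12.76, and its difference of 2.16 (SE 0.15, adjusted p = 3.53e-11, limma) was 1.34 with loess. Among the 45 genes and on the deposited values, these 2 genes of complex III had the largest differences. Ndufb6, of the membrane arm of complex I, measured 10.30, 9.14 and 9.82 against 11.94 and 11.76, a difference of 2.10 (SE 0.19, adjusted p = 3.47e-09, limma), or 1.38 with loess. Ndufa6, an accessory subunit of the peripheral arm, measured 9.29, 8.68 and 8.93 against 11.03 and 10.95, a difference of 2.02 (SE 0.14, adjusted p = 2.87e-11, limma), or 1.34 with loess. In all of these genes the KC arrays of the 2 groups did not overlap. The SEs and p-values of the KC comparison rest on the spread shared by all 8 groups. Within KC monolayers the median SD of the 45 genes was 0.27, the largest of the groups, so they may understate the spread of the arrays compared.

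Of complex V, Atp5f1d measured 10.34, 9.80 and 9.96 in KC monolayers and 11.96 and 11.65 in the KC fraction, a difference of 1.78 (SE 0.30, adjusted p = 2.03e-05, limma), or 1.06 with loess. Atp5po, the subunit that joins the catalytic head to the peripheral stalk, measured 11.47, 10.44 and 10.61 against 12.62 and 12.48, a difference of 1.71 (SE 0.20, adjusted p = 2.25e-07, limma), or 0.91 with loess. These 6 genes remained called under both other scalings. In complexes II and IV the largest called differences were those of Sdhc at 0.95 and Cox8a at 0.86, which with loess were 0.20 and 0.09 and not called. Sdha, Ndufa1 and Ndufa9 differed by -0.02, -0.13 and -0.08 on the deposited values and were lower by both other scalings. For Ndufa9, a second probe set of low signal gave -1.22 where the probe set kept gave -0.08.

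**Figure D4:**
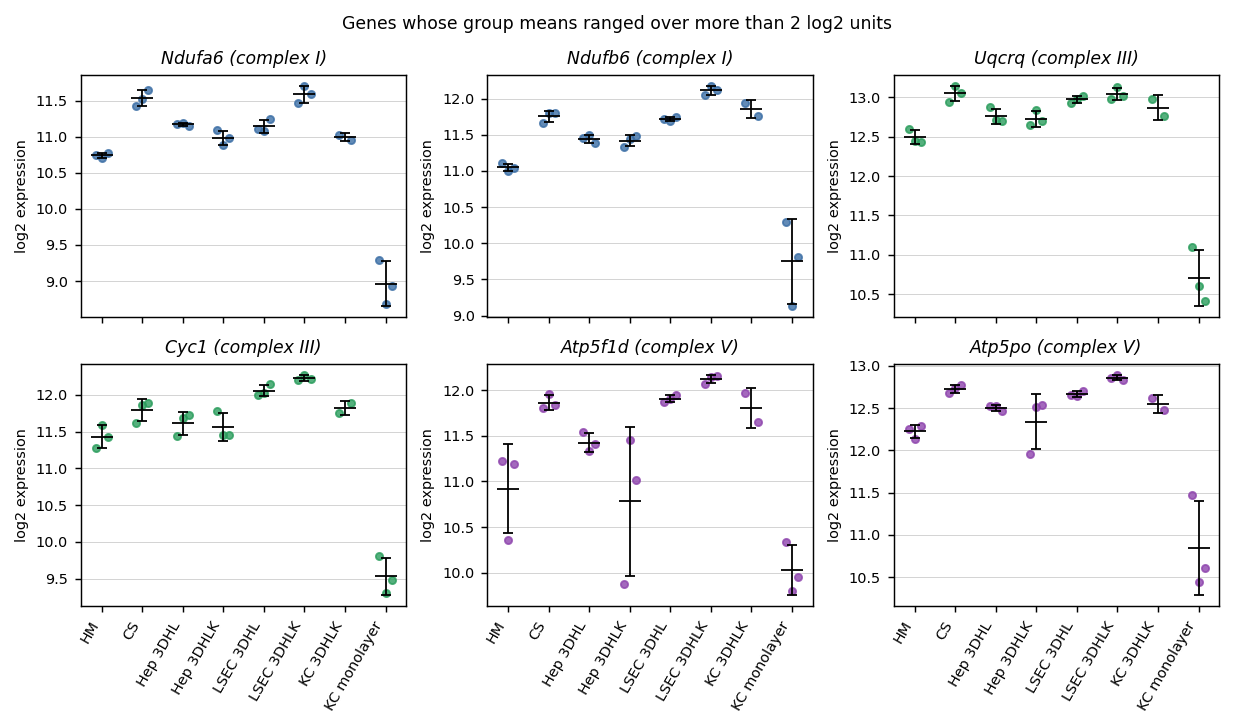
Points are the log2 values of single arrays in the 8 groups for the 6 genes whose group means ranged over more than 2 log2 units, with bars for the mean and SD. KC monolayers have the lowest mean in every panel, and HM and 3DHLK hepatocytes each have 1 array far below the others for Atp5f1d.

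Other mitochondrial genes were read from lists, given here as counts. Of 33 other subunits of the 5 complexes, 16 rose and none fell in CS against HM, where 11.1% and 10.7% of all genes did, with a median of 0.46, where Ndufv3 of complex I rose by 1.14. Of 49 genes of the mitochondrial ribosome, which translates the mitochondrial messages, 25 rose and none fell, with a median of 0.41, and Mrps34 rose by 1.01. Of 36 assembly factors 11 rose and 1 fell, with Cox14 at 1.26 and Cox15, which makes the haem A of complex IV, at -0.55. Of 20 regulators of mitochondrial biogenesis 7 rose and none fell, and Ppara, a nuclear receptor that drives fatty acid oxidation, rose by 1.18. Of 14 genes of the TCA cycle and the pyruvate dehydrogenase complex, together called TCA cycle genes here, 4 rose and 1 fell. Pdhb, of the pyruvate dehydrogenase complex, was at 0.58 and Idh2, the mitochondrial NADP-dependent isocitrate dehydrogenase, at -0.68. Of 25 carriers and import genes 5 rose and 1 fell, with Slc25a10, the dicarboxylate carrier, at 0.71 and the carrier Ucp2 at -2.58. Of 15 housekeeping genes 1 rose and 2 fell, with Hprt1 at 0.34 and Tubb5 at -0.69.

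Between 3DHL hepatocytes and HM, where 7.04% of all genes rose and 4.7% fell, the other subunits had 4 rises and no fall, with Ndufa7 at 0.69, the assembly factors 6 and none, with Cox18 at 0.61, and the ribosome 7 and none, with Mrps34 at 0.68. The regulators had 3 rises and no fall, with Pprc1 at 0.53, the carriers and import genes 1 rise, that of Phb2 at 0.42, and the TCA cycle 1 fall, that of Idh2 at -0.81. With KCs in the 3D model, 7.72% of all genes rose and 3.76% fell in hepatocytes. Near that background, 2 of the 33 other subunits rose (6.06%), where Cox4i2, an alternative form of subunit IV of cytochrome oxidase, rose by 1.96. Called were 0 of 36 assembly factors and 0 of 49 ribosome genes. Cox4i2 measured 6.08, 6.37 and 5.77 in 3DHL and 7.38, 9.05 and 7.66 in 3DHLK hepatocytes, with 3DHLK replicate 2 far above the others. The regular form, Cox4i1, had a 3DHLK mean of 12.63, below the 3DHL mean of 12.81 without passing the test. In the same comparison Ppargc1a, which encodes PGC-1α, fell by 0.43 and Tomm40, the import channel of the outer membrane, fell by 0.54 as 1 of 3 carrier and import genes that fell, while Idh2 rose by 0.68. In LSECs the addition of KCs came with rises of 6 of 36 assembly factors, 3 of 20 regulators, 2 of 49 ribosome genes, 1 of 14 TCA cycle genes and 1 of 25 carriers and import genes. With 3.58% of all genes rising, the ribosome (4.08%) and the carriers (4%) were near that background, and 0 of the 33 other subunits rose. The largest there were Sdhaf3, an assembly factor of complex II, at 0.92, Polg2, of the mitochondrial DNA polymerase, at 1.40, Mrps26 at 0.49, Sucla2 at 0.39 and Slc25a20 at 0.65. Cox6a2, the form of subunit VIa known from heart and muscle, fell by 1.10 and was the one fall among the other subunits. By the interaction term, the largest called gene of each list each way was Ndufb10 (0.86), Sdhaf3 (0.93), Ppara (1.08), Ucp2 (0.96) or Mrps34 (0.88), with the larger value in LSECs, and Cox4i2 (-1.84) or Idh2 (-0.62), with the smaller.

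Within the 3DHL model, where 18.5% of all genes were higher in LSECs and 21.9% lower, 11 of 20 regulators were lower in LSECs and 3 higher, with Gabpa, which encodes the DNA-binding subunit of NRF2, at -0.66 and Esrrg, an orphan nuclear receptor, at 0.76. The other subunits had 5 higher (15.2%) and 2 lower (6.06%), with Cox6a2 at 1.47 and Dmac2l at -0.61. The assembly factors had 5 (13.9%) and 8 (22.2%), the latter near the share of all genes. Among them Tmem70, needed to assemble ATP synthase, was at 1.24 and Cox15 at -0.88. The ribosome had 4 (8.16%) and 5 (10.2%), with Mrpl30 at 0.82 and Mrpl49 at -0.76, and the TCA cycle 2 and 1, with Pdha1 at 0.73 and Idh3g at -0.63. Of the carriers and import genes 3 were higher and 4 lower, with Slc25a10 at 0.82 and Ucp2 at -3.45. In the 3DHLK model, against 34.7% and 25.7% of all genes, the other subunits had 20 higher and 2 lower, with Ndufa11 at 1.17 and Cox4i2 at -1.63, the assembly factors 17 and 2, with Tmem70 at 1.99 and Cox15 at -0.70, and the ribosome 27 and 2, with Mrpl30 at 1.36 and Mrps6 at -0.58. The regulators had 6 (30%) and 6 (30%), with Polg2 at 0.98 and Gabpa at -1.24. The TCA cycle had 5 (35.7%) and 2 (14.3%), with Pdha1 at 0.89 and Idh2 at -0.56. In both lists the share higher was near that of all genes, and so was the share of regulators lower. Of the carriers and import genes 14 were higher and 3 lower, with Slc25a10 at 1.497 and the ADP/ATP carrier Slc25a4 at -2.90. Against KCs of that model, 9.73% of all genes were higher in LSECs and 5.35% lower. The other subunits, with 3 of 33 higher (9.09%), and the ribosome, with 5 of 49 (10.2%), were near that background. Higher in LSECs were also 9 of 36 assembly factors (25%), 7 of 14 TCA cycle genes (50%), 6 of 20 regulators (30%) and 6 of 25 carriers and import genes (24%). The largest were Ndufv3 at 0.78, Sdhaf3 at 1.59, Mrpl34 at 0.88, Dld at 1.05, Polg2 at 1.42 and Slc25a10 at 1.22. There 2 regulators (10%) and 1 ribosome gene (2.04%) were lower, with Yy1 at -0.47 and Mrpl49 at -0.40.

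Between KCs of the 3DHLK model and KC monolayers, on the deposited values whose scaling limits are given above, 25 of 33 other subunits, 27 of 36 assembly factors and 48 of 49 ribosome genes were higher and 1, 0 and 1 lower, against 44.5% and 20.8% of all genes. The largest were Ndufc1 of complex I at 2.81, the complex III assembly factor Ttc19 at 2.11 and Mrpl23 at 2.31, while Atp5if1, the inhibitor of ATP synthase, was at -0.37 and Mrps31 at -0.57. Regulators were 14 higher and 3 lower, with Ppara at 2.18 and the PGC-1 family member Ppargc1b at -1.47. The TCA cycle had 11 and 2, with the malate dehydrogenase Mdh2 at 2.04 and Idh2 at -1.37, and the carriers and import genes 18 and 1, with the import receptor Tomm70 at 3.08 and Ucp2 at -3.20. Housekeeping genes were 9 higher and 1 lower, with Tubb5 at 2.08 and Gusb at -0.82.

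**Figure D5:**
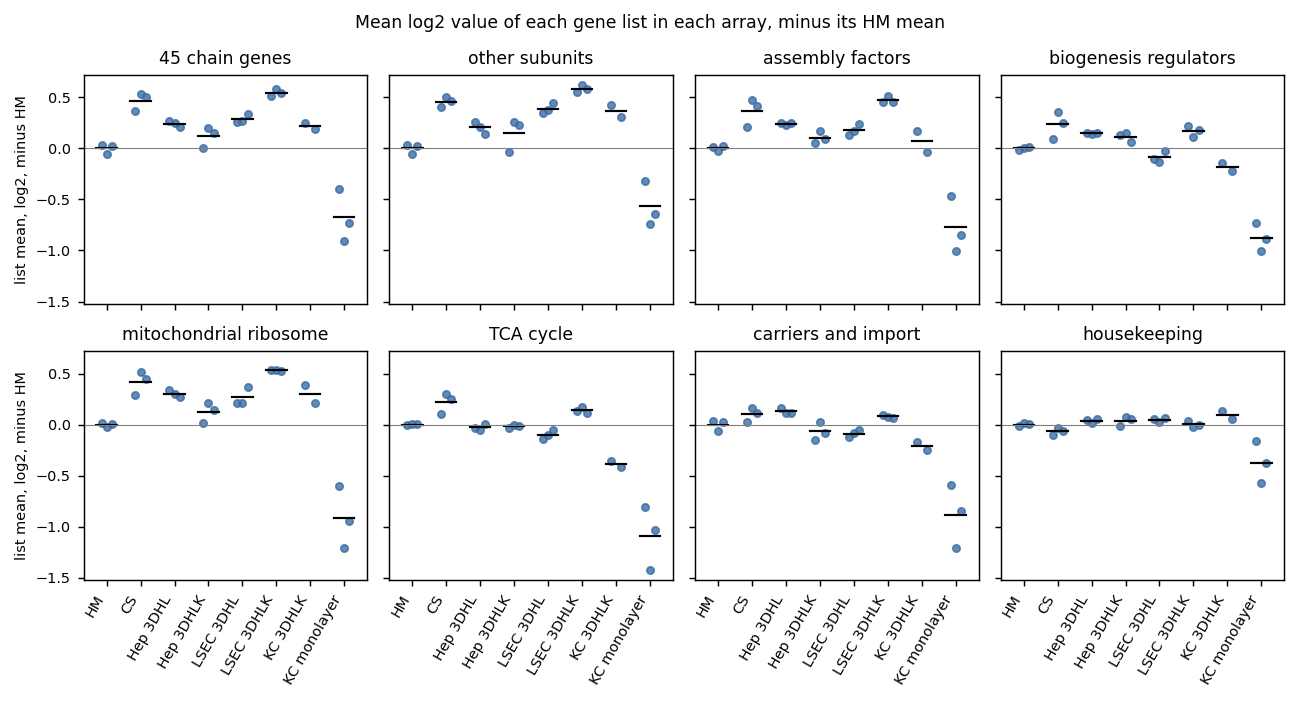
Each point is the mean log2 value of a gene list in one array minus its mean in HM, for the 45 chain genes and 7 other lists in the 8 groups, with bars for group means. The 45 chain genes, the other subunits and the mitochondrial ribosome are highest in LSECs of the 3DHLK model, and KC monolayers are lowest in every list, the housekeeping genes included.

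Messages encoded by mitochondrial DNA were looked at after the values had been seen. COX1 had group means between 14.10 and 14.32 and COX2 between 13.93 and 14.11 over the 8 groups, near the highest value of an array, which was 14.59 to 14.81. The probe set that names Uqcrb and a related gene averaged 12.54 in HM, 12.78 in CS and 11.89 in KC monolayers. The 2 probe sets that name Cycs, cytochrome c, with related genes averaged 12.22 and 11.96 in HM, 12.17 and 12.56 in LSECs of the 3DHLK model and 10.69 and 10.92 in KC monolayers, and so differed in how LSECs compared with HM.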

How the data were processed

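RNA was measured on 23 Affymetrix rat arrays in 8 groups, assigned from the labels. Per the labels and the paper's methods, the authors checked the arrays with Simpleaffy and deposited log2 expression values from RMA, that is, after background correction, quantile normalization and summing up of probes, with no detection calls. RMA has a version not given in the sources used here, and the labels name an amplification system where the paper names a standard labelling process. Precision is limited by the number of arrays.

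Of 31099 probe sets, 20832 name 1 gene, and the highest mean over all arrays chose among those of a gene. Tests used limma 3.58.1 (R 4.3.3) with lmFit, contrasts of 8 group means and eBayes, and Benjamini-Hochberg adjustment over 14218 genes with a threshold of 0.05. The code was tested on simulated data. The 45 genes and all lists were chosen with earlier results of these data known. Named are the largest called rise and fall of each complex in each comparison, each gene whose group means ranged over more than 2 log2 units, and the largest called rise and fall of each other list. A few other genes were named after their values were seen. Alternatives were a fit to the compared arrays, a block of replicate number, averaging a gene's probe sets, no genes under the 30th percentile, cyclic loess, centring on housekeeping genes, trended and robust eBayes, and leaving out each array. A fit without the KC monolayers was added after seeing the data. RefSeq promoters are from assembly GRCr8, and figures were drawn with matplotlib 3.10.9.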

Additional observations from a re-analysis of the deposited data

Results flagged for a closer look

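The change of the 45 chain genes from the 3DHL to the 3DHLK model differed between LSECs and hepatocytes for 7 genes by an interaction term in limma, each with the larger value in LSECs. The differences were 0.90 for Ndufb8, 0.63 for Ndufa6, 0.62 for Ndufv2, 0.60 for Ndufs8, 0.56 for Sdhc, 0.49 for Ndufa5 and 0.48 for Cox5b on the log2 scale. Of these genes, Ndufa6, Ndufv2 and Cox5b also passed the test in LSECs, and none of the 7 passed it in hepatocytes.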

How the results depend on the processing

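The counts of called genes among the 45 moved by no more than 1.5 times under trended and robust eBayes and under the filter on low values. None of the 32 differences of named genes changed sign under any alternative run, while the medians of complexes II and IV between KC cultures did under cyclic loess. With only the compared arrays fitted, the rises were 22 for 3DHL hepatocytes against HM, 18 for LSECs between the 3D models, 10 for LSECs over hepatocytes in the 3DHL model and 19 for the interaction. Without the KC monolayers in the fit, these were 17, 18, 7 and 19, LSECs exceeded KCs in 23 genes, and 2 fell in hepatocytes between the 3D models. Cyclic loess gave 9 rises for LSECs between the 3D models, 14 for LSECs over hepatocytes in the 3DHL model, 1 gene lower in LSECs than hepatocytes of the 3DHLK model, and 16 higher and 10 lower for KCs. Housekeeping centring gave 19 for LSECs between the 3D models, 25 for LSECs against KCs, 18 for the interaction and 4 lower for KCs. Averaging a gene's probe sets gave 1 lower for KCs. Fits to the compared arrays or without the KC monolayers kept the log2 differences, and only the estimate of the spread changed. What moved the counts under the other settings was not tested. Counts over all genes moved too. For LSECs between the 3D models 662 genes rose and 763 fell under cyclic loess, and 789 rose and 549 fell with housekeeping centring. For the interaction 1497 were larger and 1407 smaller in LSECs with only the compared arrays, and 888 and 978 with housekeeping centring. For LSECs over hepatocytes in the 3DHL model 3920 genes were higher and 3992 lower without the KC monolayers. The share of the 45 genes that was higher there stayed below that of all genes.

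Leaving out 1 array in turn gave 20 to 33 rises for CS against HM, 0 to 2 for 3DHL hepatocytes against HM, 0 to 2 for LSECs between the 3D models, 1 to 2 higher and 2 to 3 lower for LSECs over hepatocytes in the 3DHL model, 26 to 30 higher in the 3DHLK model, 1 to 9 for LSECs against KCs, 34 to 42 for KCs and 0 to 9 for the interaction. Where 1 array of the KC fraction was left, it was assumed to vary like the other groups. For hepatocytes between the 3D models leaving out 1 array gave 0 to 2 falls. Arrays were tested as unpaired, and whether replicate numbers pair them is not known. Deviations of arrays with the same number correlated between -0.31 and 0.33, which cannot settle this with 2 or 3 arrays per group. In the paper LSECs came from the same isolation as hepatocytes, so the fractions of a 3D model may share cultures. With a replicate block, LSECs between the 3D models had 2 rises, and no other count moved by 1.5 times.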
